A study of Mus musculus with 18 samples.

Results

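Serpinb1c, 1700018B24Rik and AC159200.1 are 3 of the 31053 mouse genes counted in single-cell RNA libraries of whole embryos, and they are described here across embryos, genotypes and cell classes. They were chosen by their measured levels in these same embryos, at or near 0 in wild-type (WT) embryos and well above 0 in embryos lacking Dnmt1. Their levels in Dnmt1 knockout (KO) and WT embryos are therefore given as a description, with no test. Serpinb1c (ENSMUSG00000079049) is a protein-coding gene of 7 exons at chr13:32881434-32898211 on the minus strand (GRCm38), and it belongs to the clade B serpins, intracellular inhibitors of proteases. 1700018B24Rik (ENSMUSG00000037910, chr3:48605732-48609102, minus strand) and AC159200.1 (ENSMUSG00000116579, named Gm49701 in the annotation used here, chr16:58651490-58655244, minus strand) are annotated as long intergenic non-coding RNAs (lincRNAs), each with 2 exons. Their spliced lengths are 593 and 715 bases, against 1633 bases for the longer transcript of Serpinb1c.

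In mammals a methyl group on the cytosine of a CG dinucleotide (CpG) near a gene's start is commonly associated with a silent gene. Dnmt3a and Dnmt3b place new methylation, whereas Dnmt1 copies the existing pattern onto the newly made strand at each round of replication, so that cells without Dnmt1 lose methylation as they divide. Genes normally used in germ cells, and copies of retroviruses, are known for being silenced in this way in the embryo.

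The study asked what happens to gene expression and cell fate at E8.5, when organs begin to form, in embryos that lack a DNA methyltransferase. By the labels each of the 18 libraries came from a single embryo, though 2 of them shared most cell barcodes (below), and each was made with the 10x Genomics 3′ v3 assay after loading 16000 cells. This assay reads a tag near the 3′ end of each captured RNA and counts distinct molecules by unique molecular identifiers (UMIs). The KO libraries numbered 3 for Dnmt1, 4 for Dnmt3a and 4 for Dnmt3b, beside 7 WT libraries, and are named here by the number of their label. All embryos were of the 129S4/SvJae background, from matings of heterozygous parents, and were typed by PCR on tissue of the ecto-placental cone. KO embryos were homozygous for the disruption of the gene named and WT embryos were homozygous for the intact gene. The labels give the KO embryos as null, with no restriction to a tissue.

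Before the results, 3 features of the libraries have to be stated. Dnmt3b KO 1 and Dnmt3b KO 2 shared 12249 cell barcodes, which is 86.5% of the first and 79.3% of the second, against at most 133 shared barcodes in any other pair, so they were summed and counted as 1 sample, Dnmt3b KO 1+2, leaving 17 samples. By Y-linked counts 1 of 7 WT libraries (WT 2) was male, whereas every KO library was male but for Dnmt3b KO 12. Dnmt3b KO 12 had a Dnmt3a level of 7.57 CPM (a gene's UMIs per 1000000 UMIs of the sample), inside the range of Dnmt3a KO embryos (7.49 to 11.7 CPM) and below that of WT embryos (23.1 to 35.1 CPM), and Dnmt3b KO 11 had 15.1 CPM. The tags of Dnmt3b itself did not check its label, since Dnmt3b KO samples had 57.5 to 68.4 CPM and WT embryos 35.5 to 87.3 CPM. The files held 162336 barcodes, of which 108037 were kept as cells (6602 of them Dnmt1 KO, 33846 Dnmt3b KO, 33522 Dnmt3a KO and 34067 WT). Barcodes shared by Dnmt3b KO 1 and Dnmt3b KO 2 were not merged. One kept in both is counted once for each library in the Dnmt3b KO cell numbers, here and below. A library held 36466660 to 234638944 UMIs in its kept cells, with medians of 4404.5 to 60557 per cell. Dnmt1 was at 14.9, 15.7 and 15.2 CPM in Dnmt1 KO 1, 2 and 3, against 83.3 to 115.75 CPM in WT.

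The sequence at the start of each gene is shown because CpG sites are what the 3 enzymes act on, and CG is in capitals. For Serpinb1c it is the RefSeq window (GRCm38.p6) from 250 bases before to 50 bases after the start of the transcript at the annotated gene, chr13:32898091-32898390, minus strand. For the lincRNAs, which have no such window here, it is the first 200 bases of the transcript (GRCm38), chr3:48608903-48609102 and chr16:58655045-58655244, both minus strand. All are written 5′ to 3′.
Serpinb1c: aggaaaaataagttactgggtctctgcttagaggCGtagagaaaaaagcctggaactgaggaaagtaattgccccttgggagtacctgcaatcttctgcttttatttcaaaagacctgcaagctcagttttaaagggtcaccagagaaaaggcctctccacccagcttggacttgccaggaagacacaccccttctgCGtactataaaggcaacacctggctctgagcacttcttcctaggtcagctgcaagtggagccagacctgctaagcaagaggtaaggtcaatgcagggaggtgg
1700018B24Rik: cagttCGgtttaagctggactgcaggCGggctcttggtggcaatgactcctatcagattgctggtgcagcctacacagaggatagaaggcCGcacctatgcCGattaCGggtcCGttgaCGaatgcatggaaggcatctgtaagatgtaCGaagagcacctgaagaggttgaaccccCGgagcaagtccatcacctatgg
AC159200.1: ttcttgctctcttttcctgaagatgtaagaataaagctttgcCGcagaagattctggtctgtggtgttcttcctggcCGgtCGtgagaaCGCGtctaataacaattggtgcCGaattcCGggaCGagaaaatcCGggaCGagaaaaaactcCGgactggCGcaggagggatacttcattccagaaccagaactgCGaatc

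The window of Serpinb1c held 2 CpG, where the median of all 32851 windows of this length was 7, and 23.3% of windows held 2 or fewer. A second RefSeq start of Serpinb1c, farther upstream, held none. Each window was searched on both strands for 3 short motifs. The letters CACGTG stood in 7.15% of all windows and in neither window of Serpinb1c. A search for TCCCGC, which 19.98% of all windows held, also found none there. The window shown did hold TATAAA, as did 13.6% of all windows. The stretches shown of 1700018B24Rik and AC159200.1 held 9 and 13 CpG in 200 bases. No methylation was measured in these libraries, so the letters describe where CpG sites lie and say nothing of their methylation.

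Serpinb1c was nearly absent from WT embryos. In all 7 together it had 2 UMIs, 1 in WT 2 and 1 in WT 6, so the lowest and median levels were 0 and the highest was 0.00607 CPM. In Dnmt1 KO 1, 2 and 3 it had 3963, 2944 and 845 UMIs, or 38.1, 22.6 and 10.9 CPM. The lowest Dnmt1 KO embryo was thus far above every WT embryo, and the mean was 23.9 ± 13.7 CPM (SD, n = 3). The summed UMI rate was 14838 times that of WT, with a 95% counting interval of 4106 to 122547 set almost wholly by the 2 WT UMIs, and without WT 2 or WT 6, which leaves 1 of these UMIs, it was 25587 or 24511 times. Among Dnmt1 KO embryos the first was highest and the third lowest.

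1700018B24Rik had 20 UMIs in the 7 WT embryos, 12 of them in WT 2. The lowest level was 0, the median 0.00604 and the highest 0.0729 CPM. The 0 was in WT 5, the library with the fewest UMIs, where no UMI allows up to 0.0823 CPM. It thus does not place WT 5 below the other WT embryos. In Dnmt1 KO 1, 2 and 3 1700018B24Rik had 1319, 2371 and 1354 UMIs, or 12.7, 18.2 and 17.4 CPM. The mean was 16.1 ± 2.97 CPM (SD, n = 3). No WT embryo came near these values, and the 3 Dnmt1 KO embryos lay close together. The summed rate was 965 times that of WT (95% counting interval 624 to 1582), and 2081 times without WT 2 (1055 to 4823).

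AC159200.1 also had 20 UMIs in WT, spread over 6 of the 7 embryos, with a lowest level of 0, a median of 0.0181 and a highest of 0.0321 CPM. The 0 was again in WT 5, where no UMI allows up to 0.0823 CPM. In Dnmt1 KO 1, 2 and 3 AC159200.1 had 2555, 1935 and 1133 UMIs, or 24.6, 14.8 and 14.6 CPM. The mean was 18.0 ± 5.71 CPM (SD, n = 3). The Dnmt1 KO and WT ranges did not overlap, and the summed rate was 1076 times that of WT (696 to 1763). These intervals cover counting error only. In the whole table, 14.1% of the 18760 genes tested passed the call rule in Dnmt1 KO against WT, which asks for an adjusted p below 0.01 with an absolute log2 fold change of 1 or more, and 8.11% passed it as higher. Since the same contrast chose the 3 genes, nothing is read from that. In a whole-embryo sum, more cells that use a gene and more RNA per cell cannot be told apart, and the shares and cell classes below bear on this.

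**Figure D1:**
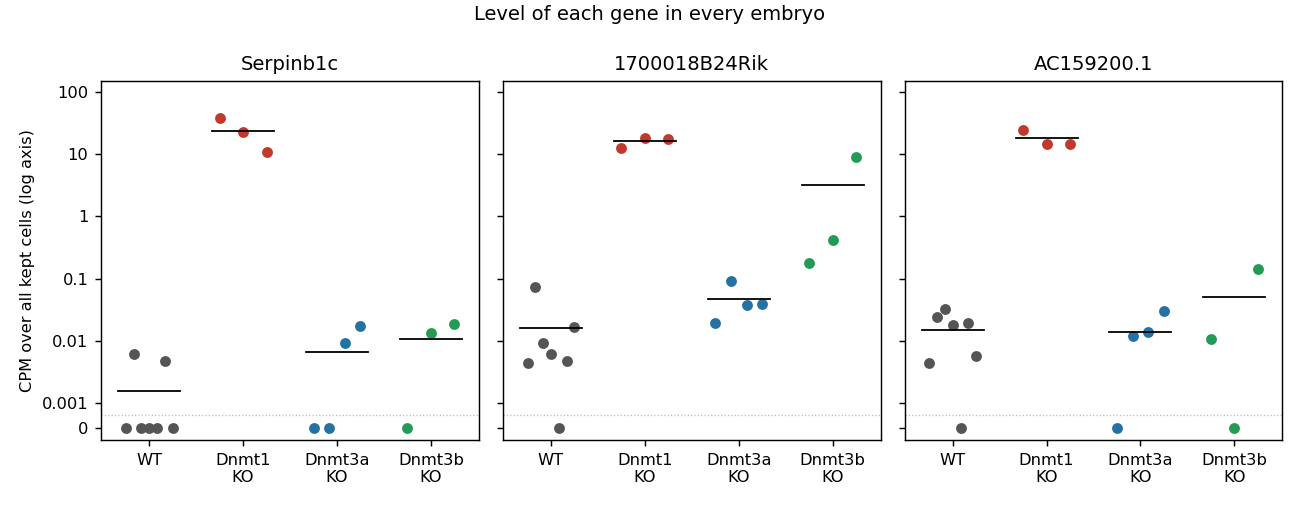
Each point is the level of the gene in 1 sample, in CPM over all kept cells on a log axis, by genotype (7 WT, 3 Dnmt1 KO, 4 Dnmt3a KO, 3 Dnmt3b KO samples). Bars are group means, and samples with no UMI are drawn at 0, below the dotted line. All 3 genes lie between 10.9 and 38.1 CPM in Dnmt1 KO embryos, and one other sample, Dnmt3b KO 12 for 1700018B24Rik (9.17 CPM), comes near that range.

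Among all genes, 13450 had a WT mean under 0.05 CPM. Ranked by their level in the lowest Dnmt1 KO embryo, AC159200.1 (14.6 CPM) had rank 3, 1700018B24Rik (12.7 CPM) rank 4 and Serpinb1c (10.9 CPM) rank 6. Tex13b, a testis-expressed gene, and Rhox13, a homeobox gene of the germline Rhox cluster, stood above them at 22.9 and 19.6 CPM. Sohlh2, a transcription factor of early germ cells, stood between them at 12.5 CPM, and Rhox2a (10.47 CPM), the Y-linked Usp9y (8.15 CPM), 4930550L24Rik (7.14 CPM) and Gtsf1, a factor of the piRNA pathway (6.57 CPM), followed. Usp9y can be counted in male embryos alone, and WT 2, the male WT embryo, had 0.0364 CPM. Tags are counted per molecule and not scaled by transcript length, so this order is one of tag counts.

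The share of cells with a tag was compared at 1 depth, since the median depth per cell differed between embryos. Each cell with 5000 or more UMIs was thinned to 5000, which left out 1313 Dnmt1 KO and 6608 WT cells. Serpinb1c was then seen in 11.5%, 6.84% and 4.63% of the cells of Dnmt1 KO 1, 2 and 3, and in 0 of 27459 WT cells, which allows a share of cells with a UMI of up to 0.0109%. That limit covers counting error at this depth only, over cells pooled from embryos whose low values chose the gene, and is no limit on cells that use it. Without thinning the 3 shares were 33.8%, 24.2% and 12.03%, at median depths of 60557, 38000 and 15430 UMIs. The thinned shares fall in the same order as the CPM levels.

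1700018B24Rik was seen in 7.29%, 8.51% and 8.43% of thinned cells of Dnmt1 KO 1, 2 and 3 (36.4%, 33.5% and 25.7% without thinning) and in 1 WT cell. AC159200.1 was seen in 10.49%, 6.65% and 5.45% (55.9%, 36.9% and 23.7% without thinning) and in 3 WT cells. Before thinning the most tags in 1 cell were 51 for Serpinb1c, 30 for 1700018B24Rik and 21 for AC159200.1. After it, 77.2% to 85.5% of the cells with Serpinb1c held a single tag, as did 87.9% to 93.8% of those with 1700018B24Rik and 89.7% to 97.3% of those with AC159200.1.

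At this depth 26.8%, 20.6% and 17.3% of the cells of Dnmt1 KO 1, 2 and 3 held a tag of at least 1 of the 3 genes, and 0.0760%, 0.0760% and 0.0746% held all 3. Cells with a UMI of at least 3 of the germ cell genes Dnd1, Nanos3, Prdm1 and Dppa3 numbered 51 of 6602 in Dnmt1 KO. They held 0.361% of the Serpinb1c UMIs, 1.13% of those of 1700018B24Rik and 0.978% of those of AC159200.1. With so few such cells, tags spread evenly over all cells would also lie almost wholly outside them. Nothing is therefore read from these shares.

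Cell classes were rebuilt from the counts with the 3 genes, their neighbours and the serpins kept out of the clustering, and are named "X-like" after marker genes. In Dnmt1 KO, 6 named classes and 2 unnamed clusters had at least 25 cells in each embryo. Extraembryonic (ExE) endoderm-like cells correspond to the yolk sac endoderm that secretes apolipoproteins, and ExE ectoderm-like cells to trophoblast. The Dnmt1 KO cells of the first class fell mostly in a cluster (10) with 17 WT among 732 reference cells, led by Pkd1l2, Serpinb1c, Prlr and Abcc2, whereas the WT cells of that class fell in other clusters (1 and 3), and those of the second in a cluster (27) led by Dnmt3l, Utf1, Ascl2 and Elf5. Cluster 20, led by Pou5f1, Wnt8a and Slc7a3, and cluster 23, led by AC167229.1, Mesp1 and Gm14226, also held mostly Dnmt1 KO cells, 568 of 584 and 527 of 537 reference cells. In an alternative, coarser clustering, the cluster named immune-like scored 5.01 for immune and 4.43 for megakaryocyte markers. The immune-like class may thus hold cells of both kinds.

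Serpinb1c had its highest class mean in ExE endoderm-like cells in Dnmt1 KO. In ExE endoderm-like cells it was at 79.6, 56.3 and 53.3 CPM in Dnmt1 KO 1, 2 and 3, and this class held 82.8%, 77.7% and 46.5% of its UMIs there, so in Dnmt1 KO 3 more of them lay in the other cells. In gut endoderm-like cells it was at 82.3, 10.8 and 28.4 CPM, a wide range resting on 106 cells in all, with the lowest value below every embryo's immune-like level (19.1 to 22.7 CPM). In ExE ectoderm-like cells it was at 1.67, 2.73 and 2.01 CPM, so every embryo had far less of it in trophoblast-like than in yolk sac endoderm-like cells. The class means were 63.0 ± 14.4 CPM in ExE endoderm-like, 40.5 ± 37.2 in gut endoderm-like, 21.4 ± 1.99 in immune-like, 14.6 ± 4.28 in ExE mesoderm-like, 11.6 ± 4.55 in endothelium-like and 2.14 ± 0.543 CPM in ExE ectoderm-like cells (SD, n = 3 each). In that order the ranges over embryos overlapped between neighbours, except between immune-like and ExE mesoderm-like and between endothelium-like and ExE ectoderm-like cells. Clusters 20 and 23 were at 2.19 ± 0.810 and 3.22 ± 0.207 CPM.

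The order of the embryos was kept on both sides of that split. Outside ExE endoderm-like cells, Serpinb1c was at 10.9, 7.32 and 6.42 CPM in Dnmt1 KO 1, 2 and 3, with 1791 UMIs in all. ExE endoderm-like cells made up 28.9%, 27.3% and 10.8% of these embryos, so the embryo with the lowest whole-embryo level also had the smallest share of this class. Without that class the mean over embryos was 8.21 CPM. In WT, the 4384 ExE endoderm-like cells held 0 UMIs of Serpinb1c among 182513795 UMIs. Low WT values chose the gene, so this is a description.

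For 1700018B24Rik the ExE classes were reversed, with ExE ectoderm-like cells high and ExE endoderm-like cells lowest. In ExE ectoderm-like cells it was at 35.8, 33.6 and 55.8 CPM in Dnmt1 KO 1, 2 and 3, and this class held 19.6%, 66.0% and 22.5% of its UMIs in 5.57%, 31.2% and 4.76% of the cells. Over all 3 embryos that was 42.2% of its UMIs, and without Dnmt1 KO 2, which had 928 of the 1112 cells, it was 21.1%. In ExE endoderm-like cells it was at 2.77, 3.03 and 3.66 CPM, and in gut endoderm-like cells at 45.1, 36.7 and 62.6 CPM. Both endoderm-like classes, which had the highest Serpinb1c means, thus lay at opposite ends for 1700018B24Rik. The class means ran from 48.1 ± 13.2 CPM in gut endoderm-like and 41.7 ± 12.2 in ExE ectoderm-like through 21.2 ± 1.72 in ExE mesoderm-like, 16.5 ± 5.95 in endothelium-like and 11.7 ± 1.74 in immune-like to 3.15 ± 0.459 CPM in ExE endoderm-like cells (SD, n = 3 each). ExE ectoderm-like did not overlap ExE mesoderm-like cells and immune-like did not overlap ExE endoderm-like cells, whereas the other neighbours in that order did overlap. Clusters 23 and 20 were at 12.96 ± 0.765 and 12.4 ± 0.881 CPM.

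AC159200.1 was the most even of the 3 over the named classes in Dnmt1 KO. Its highest class mean was 37.5 ± 10.9 CPM in immune-like cells and its lowest 18.3 ± 4.91 CPM in ExE ectoderm-like cells (SD, n = 3), a ratio of 2.04, where Serpinb1c had 29.5 and 1700018B24Rik 15.3. All neighbours in its order overlapped. Clusters 23 and 20 were lower, at 8.18 ± 1.75 and 7.03 ± 1.09 CPM, and their highest values (9.60 and 7.97 CPM) lay below the lowest value in ExE ectoderm-like cells (13.9 CPM).

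**Figure D2:**
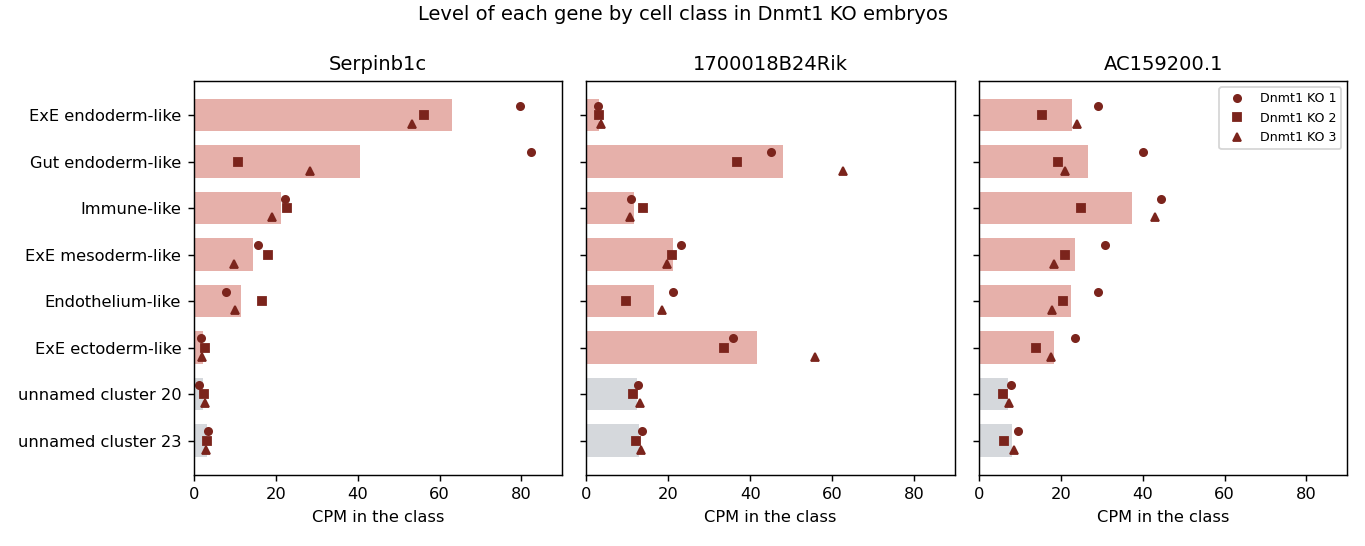
Bars are the mean over 3 Dnmt1 KO embryos of the level of the gene in a cell class, in CPM of that class on a linear axis from 0, and points are the embryos. Grey bars are the 2 unnamed clusters. Serpinb1c is highest in ExE endoderm-like cells (63.0 CPM) where 1700018B24Rik is lowest (3.15 CPM), and AC159200.1 is above 13 CPM in every embryo and named class.

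RNA freed from broken cells can carry tags into other cells, and its part in the class levels was not tested. Per 1000 UMIs of the ExE endoderm markers (Ttr, Apoa1, Afp and others), Serpinb1c had 2.28 to 2.81 UMIs in ExE endoderm-like cells over the 3 Dnmt1 KO embryos, 23.9 to 81.5 in ExE ectoderm-like and 175.2 to 411.8 in ExE mesoderm-like cells. Per 1000 UMIs of the ExE ectoderm markers, 1700018B24Rik in Dnmt1 KO 1, 2 and 3 had 45.4, 30.8 and 67.4 UMIs in ExE ectoderm-like cells. It had 95.5, 80.4 and 126.8 in ExE endoderm-like cells, above the ExE ectoderm-like value in every embryo. In ExE mesoderm-like cells, which share the marker Hand1 with that list, it had 40.05, 38.8 and 49.5, above the ExE ectoderm-like value in Dnmt1 KO 2 and below it in the other two.

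In embryos without Dnmt3a, all 3 genes had few UMIs, and most values lay within the WT range. The comparisons of Dnmt3a KO and Dnmt3b KO with WT use the WT embryos whose low values chose the genes. With Dnmt3a KO and WT embryos alone, none of the 3 had enough UMIs to pass the filter on low counts. Serpinb1c and AC159200.1 were fitted only because the Dnmt1 KO embryos carried them through it, and 1700018B24Rik because Dnmt1 KO and Dnmt3b KO samples did, so the fold changes are given as a description. Serpinb1c had 6 UMIs in 4 embryos, 2 in Dnmt3a KO 13 and 4 in Dnmt3a KO 14 (0.00929 and 0.0170 CPM, above the highest WT embryo), with a fitted log2 fold change of 1.70 (SE 1.24). 1700018B24Rik was at 0.0196, 0.0904, 0.0371 and 0.0384 CPM in Dnmt3a KO 1, 2, 13 and 14, with Dnmt3a KO 2 above the WT range (log2 fold change 1.33, SE 1.32). The top of that range was WT 2 alone (0.0729 CPM). The other WT embryos were at 0 to 0.0169 CPM, below all 4 Dnmt3a KO embryos. Few UMIs separate them, with 3 in WT 7 and 4 in Dnmt3a KO 1. AC159200.1 was at 0, 0.0121, 0.0139 and 0.0298 CPM, all within the WT range (log2 fold change -0.24, SE 0.96).

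In embryos without Dnmt3b, 1700018B24Rik was above every WT embryo in all 3 samples, and the other two genes stayed near 0. 1700018B24Rik had 49 UMIs in Dnmt3b KO 1+2, 93 in Dnmt3b KO 11 and 1503 in Dnmt3b KO 12, or 0.176, 0.414 and 9.17 CPM. Dnmt3b KO 12 lay far above the other two. The fitted log2 fold change against WT was 7.44 (SE 0.97, edgeR, adjusted p = 0.000104), where 1.81% of the 18760 genes tested were called. Since low WT values chose the gene, that p is not independent of the choice, and it is not read as support. Without Dnmt3b KO 12 the log2 fold change was 4.07. Dnmt3a was at 32.1, 15.1 and 7.57 CPM in Dnmt3b KO 1+2, 11 and 12, the reverse order of 1700018B24Rik. Dnmt3b KO 11, which stays in the 4.07, was thus also below the WT range of 23.1 to 35.1 CPM. Dnmt3b KO 12 was also female and the only matrix made with Cell Ranger 5.0.0. The part of these features in the levels of 1700018B24Rik was not tested.

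Serpinb1c was at 0, 0.0134 and 0.0183 CPM in Dnmt3b KO 1+2, 11 and 12, a fitted log2 fold change of 2.01 (SE 1.26) against WT. AC159200.1 was at 0.0107, 0 and 0.140 CPM, with 23 of its 26 UMIs in Dnmt3b KO 12 (log2 fold change 1.27, SE 0.85). Both were fitted only through the Dnmt1 KO embryos and get no test here. In Dnmt3b KO 12, where 1700018B24Rik reached the order of its Dnmt1 KO level, both were far below theirs.

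Between Dnmt3b KO and Dnmt3a KO, 1700018B24Rik was higher in Dnmt3b KO by 6.11 on the log2 scale (SE 1.06, edgeR, adjusted p = 0.00979), where 0.213% of the genes tested were called. The Dnmt1 KO and WT embryos that chose the gene are not in this contrast, but they add to the variance estimate of the fit, and fitted to only Dnmt3b KO and Dnmt3a KO the gene was not called (6.12, edgeR, adjusted p = 0.19996). The gene also passed the filter on low counts through Dnmt1 KO and Dnmt3b KO samples. The Dnmt3b KO samples are the high side of this contrast, so its p is not read as support. The call was lost in 10 of 17 other analyses in all. Without any 1 of the Dnmt3a KO embryos the log2 fold change stayed at 5.87 to 6.61 (adjusted p = 0.0257 to 0.0656). It was smaller in the one without Dnmt3b KO 12 (log2 fold change 2.72, adjusted p = 0.0954) and the one with a term for Y-linked counts (3.39, adjusted p = 0.409). The same edgeR fit gave Serpinb1c 0.31 (SE 1.11) and AC159200.1 1.51 (SE 0.95), both again fitted only through the Dnmt1 KO embryos.

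Thinned to 5000 UMIs, 1700018B24Rik was seen in 0.0662%, 0.138% and 4.27% of the cells of Dnmt3b KO 1+2, 11 and 12, against 0 in 6 WT embryos and 0.0371% in WT 7. The mean difference from WT was 1.49 percentage points, and 0.0967 without Dnmt3b KO 12. In Dnmt3a KO 1, 2, 13 and 14 the share was 0, 0.0345%, 0 and 0.0391%. All 3 Dnmt3b KO samples thus lay above all WT and Dnmt3a KO embryos, but few cells separate them. Dnmt3b KO 1+2 and 11 had 9 and 11 such cells, against 1 in WT 7 and 2 each in Dnmt3a KO 2 and 14.

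By cell class, 1700018B24Rik was split as follows. In WT, 9 of its 20 UMIs were in ExE endoderm-like cells (0 to 0.195 CPM), and 7 were in 6 ExE ectoderm-like cells of WT 2, the WT embryo that held 129 of the 131 ExE ectoderm-like cells of that group (2.26 CPM, 95% counting interval 0.909 to 4.66). In Dnmt3a KO, 24 of 36 UMIs were in ExE endoderm-like cells, at 0.122, 0.297, 0.270 and 0.109 CPM in embryos 1, 2, 13 and 14, against 0 to 0.0378 CPM in all other cells. In Dnmt3b KO 1+2, 11 and 12 the level in ExE endoderm-like cells was 0.993, 1.01 and 0.881 CPM. These 3 values nearly coincided, above all WT and Dnmt3a KO embryos and below the Dnmt1 KO embryos (2.77 to 3.66 CPM).

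In all other cells the Dnmt3b KO samples were far apart, at 0.0535, 0.302 and 10.2 CPM in Dnmt3b KO 1+2, 11 and 12, where Dnmt1 KO embryos were at 18.9 to 25.03 CPM and WT embryos at 0 to 0.0648 CPM. The excess of Dnmt3b KO 12 over the other Dnmt3b KO samples was thus outside ExE endoderm-like cells. All 15 named classes with at least 25 cells held 1700018B24Rik in that embryo, with a median of 9.44 CPM, whereas unnamed clusters 12 and 38 held no UMI of it. The lowest level was in ExE endoderm-like (0.881 CPM) and the next in erythroid-like cells (1.95 CPM), and the highest in cardiomyocyte-like and gut endoderm-like cells (25.4 and 25.3 CPM). ExE endoderm-like cells were thus the lowest named class in Dnmt3b KO 12 as in Dnmt1 KO, whereas in every other sample with a UMI of it (WT 5 had none) their level was above that of the remaining cells. This split was made after the values were seen and carries no test.

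**Figure D3:**
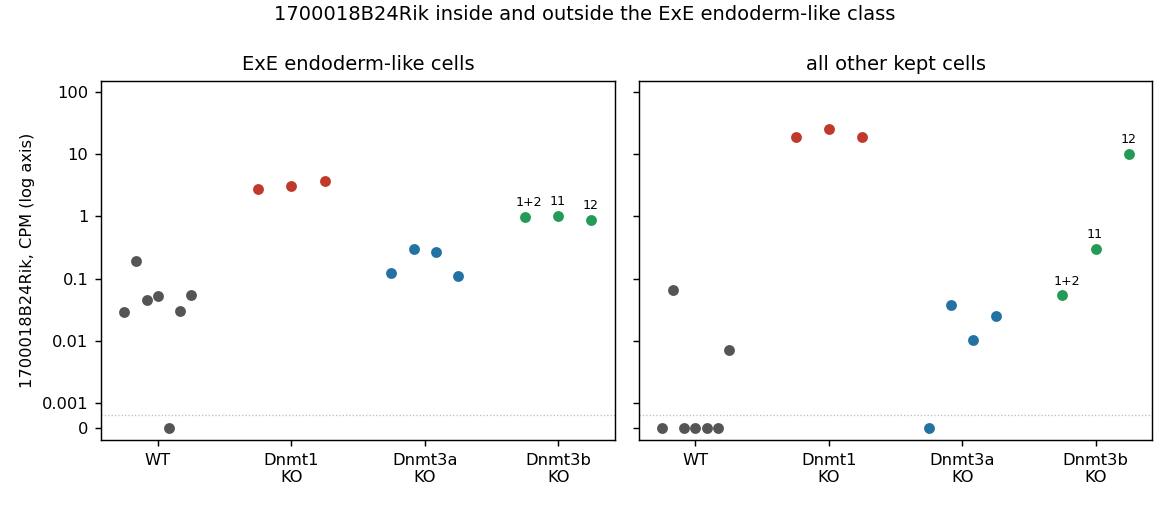
Each point is the level of 1700018B24Rik in 1 sample, in CPM on a log axis, in ExE endoderm-like cells (left) and in all other kept cells (right), and samples with no UMI are drawn at 0, below the dotted line. The 3 Dnmt3b KO samples lie together on the left (0.881 to 1.01 CPM) and spread from 0.0535 to 10.2 CPM on the right.

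The same embryo stood apart over other silent genes. Of the genes with a WT mean under 0.05 CPM, 86, 71 and 75 reached 1 CPM in Dnmt1 KO 1, 2 and 3, and 56 did in all 3. In Dnmt3a KO 1, 2, 13 and 14 the number was 0, 6, 1 and 2, and in Dnmt3b KO 1+2 and 11 it was 3 and 6. In Dnmt3b KO 12 it was 71, of which 29 were among the 56 of Dnmt1 KO, 51.8% of those and 40.8% of the 71. Serpinb1c and AC159200.1 belonged to the 16 of the 56 that stayed under 0.2 CPM in Dnmt3b KO 12, and 1700018B24Rik to the 29. The Y-linked Usp9y, Uba1y and Zfy1 were also among the 16, each with no UMI in Dnmt3b KO 12. That embryo was female and the Dnmt1 KO embryos were male, so sex set this in advance. The 51.8% is taken over these Y-linked genes too. No WT embryo had any WT-silent gene at 1 CPM, as the WT mean chose them.

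**Figure D4:**
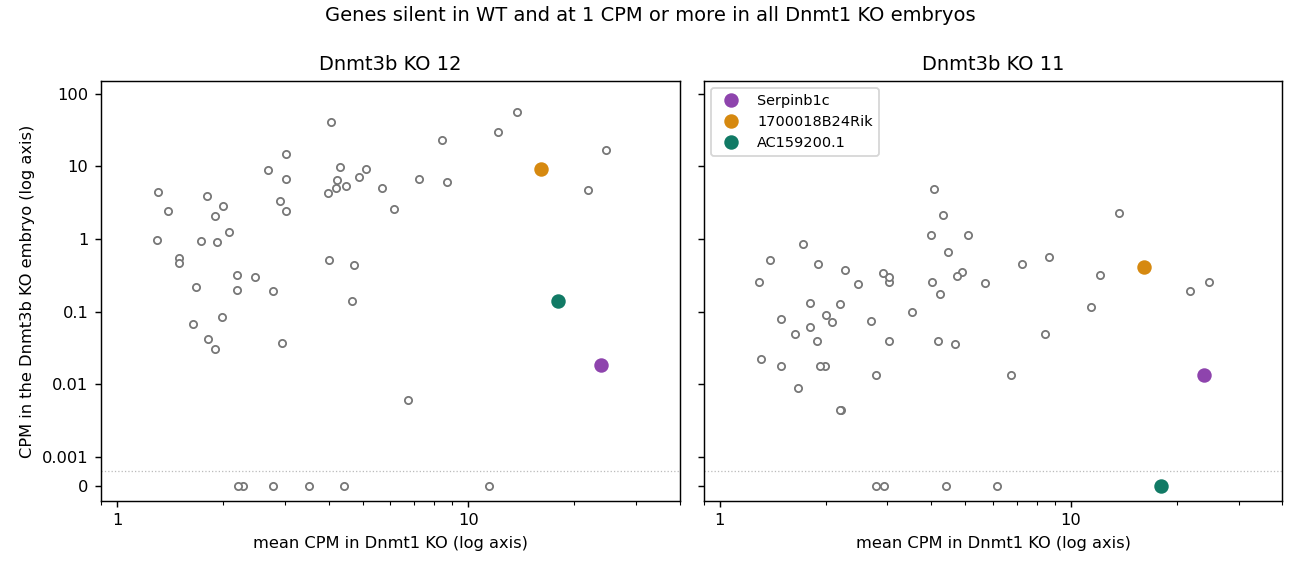
Each point is 1 of the 56 genes with a WT mean under 0.05 CPM and 1 CPM or more in all Dnmt1 KO embryos, with its mean level in Dnmt1 KO across and its level in Dnmt3b KO 12 (left) or Dnmt3b KO 11 (right) upward, both in CPM on log axes. Genes with no UMI are drawn at 0, below the dotted line. In Dnmt3b KO 12, 1700018B24Rik lies at 9.17 CPM, with AC159200.1 at 0.140 and Serpinb1c at 0.0183 CPM far below it.

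The genes whose levels followed each member most closely over the 17 samples were found by Pearson's r of log2(CPM + 0.5), given as a description because Dnmt1 KO embryos set most of it. For Serpinb1c they were Gm40652, Gm29084, Hamp2, Apoh and Olfr1009 (r = 0.998 to 0.999). Apoh, a plasma lipid-binding protein, and Hamp2, of the hepcidin family, are known as liver products, and Apoh was at 4.67 to 8.65 CPM in Dnmt1 KO and 0.00610 CPM in Dnmt3b KO 12. For 1700018B24Rik they were Gtsf1, Gm973, Nlrp4c, Olfr316 and Fthl17c (r = 0.994 to 0.998). In Dnmt3b KO 12 these 5 ran from 0.872 CPM (Olfr316) to 6.70 CPM (Fthl17c), and Gtsf1 and Nlrp4c are known from germ cells. For AC159200.1 they were Gm45155, Gm40652, Apoh, Trim5 and Gm15389 (r = 0.996 to 0.998). Between the members, r was 0.995 for Serpinb1c and AC159200.1, 0.859 for Serpinb1c and 1700018B24Rik, and 0.882 for 1700018B24Rik and AC159200.1.

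Neither of the closest relatives of Serpinb1c passed the call rule, and for Serpinb1a that turned on single embryos. Serpinb1a and Serpinb1b, whose transcripts match that of Serpinb1c at 87.9% over 1392 bases and 82.9% over 1613 bases, lie near it in the serpin cluster of chromosome 13. Serpinb1a was at 7.25, 5.04 and 1.63 CPM in Dnmt1 KO 1, 2 and 3, against a WT lowest of 1.15, median of 2.11 and highest of 5.06 CPM, so the groups overlapped. Its log2 fold change of 0.99 (SE 0.40, edgeR, adjusted p = 0.0611) was not called, but was without WT 1 (1.34, adjusted p = 0.00503) or without Dnmt1 KO 3 (1.39, adjusted p = 0.00825). Serpinb1b was at 0.0153 to 0.0578 CPM in Dnmt1 KO and 0.0192 to 0.0669 CPM in WT (log2 fold change -0.05, SE 0.61, edgeR, adjusted p = 0.958). Only 5 of the 1544 stretches of 90 bases in the Serpinb1c transcript occurred whole in another gene, and none of the last 211, where tags fall, so the counts of these relatives could be told apart.

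Of 27 other clade B serpins listed, 25 were counted and 12 tested, with a median log2 fold change of 0.88 in Dnmt1 KO. Of the 12, 1 was called as higher, 8.33% against 8.11% of the 18760 genes tested. Over those counted it was 1 of 25, against 4.90% of all 31053 genes. The part of the filter on low counts in the median was not tested. The called serpin was Serpinb5 (maspin), at 0.164, 0.690 and 0.180 CPM in Dnmt1 KO 1, 2 and 3. Its highest WT level was 0.0312 CPM (log2 fold change 4.41, SE 0.51, edgeR, adjusted p = 4.8e-06). It passed the filter on low counts only through the Dnmt1 KO embryos, and with no filter, over 26745 genes, its adjusted p was 3.1e-06. Of 5 proteases that such serpins inhibit (Elane, Prtn3, Ctsg, Gzmb and Ctsl), 2 were tested, Prtn3 (log2 fold change 1.16, edgeR, adjusted p = 0.0121) and Ctsl (0.52, adjusted p = 0.182), and neither was called.

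The annotation held 32 genes within 250 kb of the 3 members, of which 24 were counted in the files and 11 tested. The median log2 fold change of the 11 in Dnmt1 KO was 0.10. Of the 11, 1 was called, as higher, 9.09% against 8.11% of the 18760 genes tested. Over those counted it was 1 of 24, against 4.90% of all 31053 genes. E330017A01Rik, a protein-coding gene at chr16:58635167-58638739 on the same strand and 12751 bases from AC159200.1, was at 1.13, 1.32 and 0.888 CPM in Dnmt1 KO 1, 2 and 3 and at most 0.0223 CPM in WT, with no overlap (log2 fold change 7.02, SE 0.69, edgeR, adjusted p = 8.9e-07). It too passed the filter only through the Dnmt1 KO embryos, and with no filter its adjusted p was 3.1e-07. In Dnmt3b KO 12 it was at 0.104 CPM. On the other side of AC159200.1, Cpox, an enzyme of haem synthesis, had a log2 fold change of -0.80 (SE 0.33, edgeR, adjusted p = 0.0661). Beside Serpinb1c, Serpinb1a and, on the other side, Serpinb6b (0.76, SE 0.24, edgeR, adjusted p = 0.0202) were not called. The single counted neighbour of 1700018B24Rik, Gm37190, lay 139408 bases away and had 1 UMI in all 17 samples, so it could not be tested.

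1700018B24Rik resembled the housekeeping gene Erh at 74.3% over 284 bases, and none of its 90-base stretches occurred whole in another gene. AC159200.1 differed in this from the other two. Of its 626 stretches of 90 bases, 361 (57.7%) occurred whole in transcripts of 17 other genes, 67 of them among the last 211. Reads could thus be shared with copies, and its counts are uncertain to at least that extent. Only annotated transcripts were searched, so copies elsewhere in the genome were not looked for. Stretches of it resembled 98 other counted genes, which were described after their values were seen.

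The likeness was on the same strand in 47 of these genes and on the opposite strand in 51. Of the 32 and 39 of these that were tested, 17 and 1 were silent in WT (a mean under 0.05 CPM). A silent gene enters the test only where other samples hold it, so calls are given over all genes counted. On the same strand 20 of 47 were higher in Dnmt1 KO (42.6%), and on the opposite strand 2 of 51 (3.92%), against 4.90% of all 31053 genes. On each strand 1 gene was lower. Over those tested, the median log2 fold change was 2.77 and 0.01, and the part of the filter in these medians was not tested. The 360 bases of the first exon of AC159200.1 matched the gene Noct at 99.7%. Noct was at 75.5 to 117.2 CPM in Dnmt1 KO and at most 19.99 CPM in WT (log2 fold change 2.80, SE 0.17, edgeR, adjusted p = 3.6e-09). Gm29084, which matched the 355 bases of the second exon at 99.2%, was at 0.244 to 0.404 CPM in Dnmt1 KO and had no UMI in WT. Gm15389, one of the 5 genes closest to AC159200.1 in pattern, also carried a like stretch on the same strand, at 83.3% over 108 bases.

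**Figure D5:**
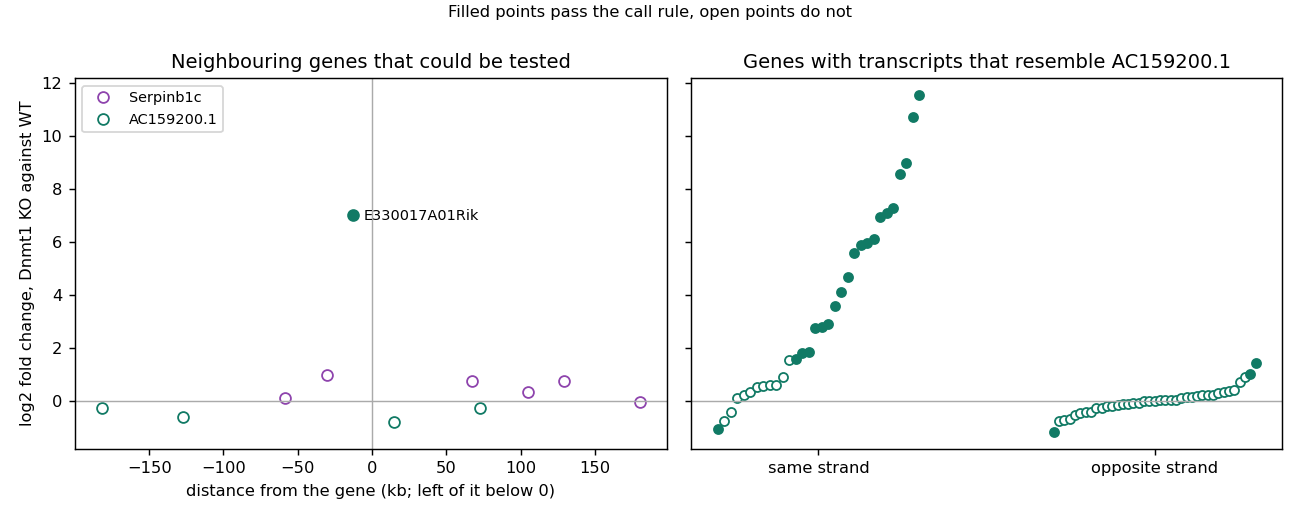
Points are genes, with the log2 fold change in Dnmt1 KO against WT upward. Filled points pass the call rule. The left panel shows the 11 neighbours that could be tested by their distance from Serpinb1c or AC159200.1 in kb, with E330017A01Rik the only one called. The right panel shows the 71 tested genes that resemble AC159200.1, sorted by fold change within each strand. Of those tested, 20 of 32 on the same strand and 2 of 39 on the opposite one were higher. Over the genes counted the shares were 42.6% and 3.92%, against 4.90% of all 31053 genes. A gene silent in WT entered the test only where other samples held it.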

How the data were processed

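The deposited values are raw UMI counts per gene and cell, which the authors made with Cell Ranger on mouse mm10. Per the file headers, version 3.1.0 made 17 matrices and 5.0.0 that of Dnmt3b KO 12, and 4 libraries (WT 1, Dnmt3a KO 1, Dnmt3a KO 13, Dnmt3b KO 11) had a human genome added to the mouse reference. Kept cells had at least 1500 UMIs, at most 30% mitochondrial and 35% ribosomal protein counts, and were outside the highest doublet scores, taken at 0.8% per 1000 cells. The 3 genes and all gene lists were chosen with earlier results of these data known.

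Counts were summed per embryo and fitted with edgeR 4.0.16 (R 4.3.3, quasi-likelihood test, filterByExpr, TMM) over all 4 groups, with Benjamini-Hochberg adjustment over 18760 genes. Serpinb1c and AC159200.1 passed the filter on low counts only through the Dnmt1 KO embryos, and 1700018B24Rik also through Dnmt3b KO samples. The scripts were tested on simulated counts. Alternatives were DESeq2 1.42.0, other size factors, no filter, a replicate block, covariates, other cell filters and each embryo left out.

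Classes were rebuilt with scanpy 1.11.5 (2500 variable genes, 50 components, Leiden resolution 2), since the study's own cell types were not used here. Coordinates came from GENCODE on GRCm38 (31011 of 31053 identifiers matched) and promoter windows from RefSeq. Genes named were the members, Dnmt1, the nearest counted neighbours and any called, Serpinb1a, Serpinb1b and any listed serpin or protease called, the 5 genes with the highest r for each member, and the 10 WT-silent genes with the highest level in their lowest Dnmt1 KO embryo. Dnmt3a, Dnmt3b, Ctsl, Prtn3 and genes resembling AC159200.1 were named after their values were seen.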

Additional observations from a re-analysis of the deposited data

Results flagged for a closer look

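In 25 groups of 4 to 10 samples, 5 had a sample far from the others, and chance gives about 1 in 20 groups. The flagged shares of cells each rest on 1 cell with none in the other embryos, and that rate does not hold for them. The number flagged is therefore not read as an excess. 1700018B24Rik was at 0.0729 CPM in WT 2 and at 0 to 0.0169 CPM in the other WT embryos, and WT 2 held 129 of the 131 ExE ectoderm-like WT cells. At 5000 UMIs per cell it was seen in 0.0371% of the cells of WT 7, which is 1 cell, and in none of the other WT embryos. Serpinb1c was seen at that depth in 0.0196% of the cells of Dnmt3a KO 14, again 1 cell, and in none of the other Dnmt3a KO embryos. Among neighbours, E330017A01Rik was at 0.0223 CPM in WT 1 (0 to 0.00962 CPM in the others) and Serpinb1a was at 5.06 CPM in WT 1 (1.15 to 2.62 CPM in the others). 1700018B24Rik was higher in Dnmt3b KO than in Dnmt3a KO samples by 6.11 on the log2 scale (edgeR, adjusted p = 0.00979). In this fit it passed the filter on low counts through Dnmt1 KO and Dnmt3b KO samples, so its p is not read as support. The WT and Dnmt1 KO embryos that chose the gene add to the variance estimate of that fit, and with only the groups compared it was not called (6.12, edgeR, adjusted p = 0.19996). The call was lost in 10 of 17 other analyses, with a smaller change without Dnmt3b KO 12 (2.72, adjusted p = 0.0954) and a change of 5.87 to 6.61 without any 1 Dnmt3a KO embryo. Dnmt3b KO 12 was the only female KO embryo, had a Dnmt3a level of 7.57 CPM and was the only matrix made with Cell Ranger 5.0.0. The part of these in the difference was not tested.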

How the results depend on the processing

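Calls of the members against WT rest on the WT values that chose them, so how often they recur over alternatives says nothing of their stability and is not given. In Dnmt3b KO against WT the replicate block left 0 members called, with a log2 fold change of 2.69 for 1700018B24Rik (edgeR, adjusted p = 0.455). Under that block Serpinb1c had -2.12 in Dnmt3a KO and -2.07 in Dnmt3b KO against WT, and AC159200.1 had -1.002 in Dnmt3b KO. The numbers did not pair the embryos: deviations of 13 same-number pairs correlated at -0.238 to 0.192 (median 0.0386), 3 of them over 0.1. The cause was not tested. Over all genes the block called 1, 0, 1 and 1433 genes in the order Dnmt3a KO against WT, Dnmt3b KO against WT, Dnmt3b KO against Dnmt3a KO and Dnmt1 KO against WT, where the fit without it called 40, 340, 40 and 2654, DESeq2 113, 430, 110 and 2786, and the fit to only the groups compared 58, 233, 5 and 2399.

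In Dnmt3b KO against Dnmt3a KO, 0 members were called, with these log2 fold changes of 1700018B24Rik, under the replicate block (1.78), with Dnmt3b KO 1 and 2 as separate samples (5.74), with a Y-linked covariate (3.39), with a reference covariate (5.48) and with only the groups compared (6.12). Leaving out 1 embryo at a time gave 0 to 1 members and 2.72 to 6.63, against 4.07 to 8.52 for Dnmt3b KO against WT. With the Y-linked covariate AC159200.1 had 2.23 in Dnmt3a KO against WT and -0.0045 in Dnmt3b KO against Dnmt3a KO, and with the reference covariate 0.33 in Dnmt3a KO against WT. Leaving out 1 embryo gave it -0.88 to 0.16 in Dnmt3a KO and -1.42 to 1.88 in Dnmt3b KO against WT and -1.21 to 2.15 between them, and gave Serpinb1c -0.24 to 1.20 between them. The fit to only the groups compared left out all 3 members for Dnmt3a KO against WT, and all but 1700018B24Rik for the other two contrasts, through its filter. The ratio of summed rates of Dnmt1 KO to WT, with each WT embryo left out after seeing the data, ran from 12054 to 25587 for Serpinb1c, 826 to 2081 for 1700018B24Rik and 920 to 1354 for AC159200.1.

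In Dnmt1 KO, calls among neighbours and serpins numbered 2 to 4 with 1 embryo left out (4 without WT 1 or without Dnmt1 KO 3), and Serpinb1b ran from -0.41 to 0.39. It was at 0.56 with the Y-linked covariate, 0.012 with the reference covariate, 0.16 with all barcodes of 1500 or more UMIs and 0.19 with doublets kept. In shares of cells, thinning to 1500 UMIs gave Serpinb1c -0.0020 percentage points in both Dnmt3a KO and Dnmt3b KO and AC159200.1 0.00418 in Dnmt3a KO, and thinning to 10000 gave AC159200.1 0.00543. With 1 embryo left out, AC159200.1 ran between -0.00443 and 0.00487 for Dnmt3a KO and between -0.00247 and 0.0643 for Dnmt3b KO. Without ExE endoderm-like cells, an alternative chosen after seeing the data, the Dnmt1 KO means were 8.21 CPM for Serpinb1c and 21.0 CPM for 1700018B24Rik. The causes of these shifts were not tested. With 2 to 36 UMIs per member in WT and Dnmt3a KO, the depth limits the contrasts between them.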

Other observations

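Among the 10 WT-silent genes with the highest level in their lowest Dnmt1 KO embryo, 3 were higher in Dnmt3b KO 12 than in any Dnmt1 KO embryo and 7, the members included, were lower than in all 3. Sohlh2 was at 55.8 CPM there against 12.5 to 16.03 CPM in Dnmt1 KO, Rhox2a at 29.95 against 10.47 to 13.6 CPM, and 4930550L24Rik at 23.1 against 7.14 to 9.10 CPM. Of the lower genes, Tex13b was at 17.1 against 22.9 to 28.02 CPM, Rhox13 at 4.77 against 19.6 to 25.3 CPM, Gtsf1 at 6.05 against 6.57 to 10.2 CPM and the Y-linked Usp9y at 0 against 8.15 to 15.4 CPM. Trim5, one of the 5 genes closest in pattern to AC159200.1, was at 32.8 to 35.9 CPM in Dnmt1 KO and 0.0366 CPM in Dnmt3b KO 12. The few WT UMIs of AC159200.1 lay mostly in 1 class, with 12 of 20 in ExE endoderm-like cells, as did 8 of 12 in Dnmt3a KO. These values were picked after they were seen and carry no test.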
